A study of Arabidopsis thaliana with 6 samples.

Results

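Tau and phi glutathione S-transferases were followed across 6 RNA sequencing libraries of sorted Arabidopsis thaliana leaf cells. The set holds 38 of the 33602 counted loci, named by class and number: the 28 tau loci GSTU1 to GSTU28 and the 10 phi loci GSTF2, GSTF3, GSTF4, GSTF6, GSTF7, GSTF8, GSTF9, GSTF10, GSTF12 and GSTF14. The phi loci GSTF5, GSTF11 and GSTF13 are outside the set. The loci were chosen by gene family name, with earlier results of these counts known, among them the high level of GSTU24 in the libraries of the line called myrBRX. Levels and fold changes of the members are therefore descriptions. How many members the tests across all loci called is given beside the share of all loci called, and nothing is read from it. The cells were labelled stomatal lineage ground cells, which are the larger daughters of asymmetric divisions in the leaf epidermis. They were sorted from true leaves of Columbia plants 9 days post germination, about 20000 cells per sample. All samples shared 2 days of cold, growth at 22 °C and days of 16 h light and 8 h dark. The myrBRX line carried myrBRXp:myrBRX-YFP, the BRXL2 line carried BRXL2p:BRXL2-YFP and the BRX line carried BRXp:BRX-YFP, each with 2 libraries. By genotype all 3 lines thus carry a YFP fusion behind the promoter named there. Transcripts of the fusions were not told apart from those of the native loci. A mutant background, the number of independent transformants and the sorting gate are not given in the sources used here, and no untransformed plants were analysed here.

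Glutathione S-transferases join the tripeptide glutathione to electrophilic compounds, and the conjugates are carried into the vacuole by transporters of the ABCC family. The tau and phi classes are specific to plants, are encoded largely in tandem clusters, and include many genes that respond to herbicides, safeners, oxylipins, pathogens and drought. Several of these responses run through TGA transcription factors, which bind TGACG elements and can act with the GRAS protein SCL14. Individual members have narrower roles: GSTU24 and GSTU25 act on the explosive TNT, GSTU19 on herbicides, GSTF6 in camalexin synthesis and GSTF12 (TT19) in moving anthocyanins to the vacuole.

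The libraries held 25817906 to 42113178 counts. Levels are given as CPM, the count divided by a library size scaled by the trimmed mean of M values (TMM) and set to a common size, and per kb where genes are compared with each other. Where a library had 0 counts, 3 counts were taken as the detection floor, which is 0.0638 to 0.0992 CPM and covers counting error only. The BRXL2 locus had 21.5 and 12.6 CPM in myrBRX libraries, 1570 and 1378 CPM in BRXL2 libraries, and 150 and 95.5 CPM in libraries labelled BRX. The BRX locus had 32.4 and 72.7 CPM in myrBRX libraries and 22.7 and 31.9 CPM in BRXL2 libraries, against 6.10 and 11.7 CPM in libraries labelled BRX, where it was lowest and so goes against that label. BRX library 1 also stood apart in organelle counts, with 5.34% of its counts against 3.77% in library 2 of that label and 0.558 to 2.32% in the other 4 libraries. The 7 stomatal lineage markers SPCH, BASL, POLAR, TMM, EPF2, MUTE and FAMA summed to 211 to 394 CPM in myrBRX, 427 to 552 CPM in BRXL2 and 490 to 1243 CPM in libraries labelled BRX. By fitted fold 1 was higher and 6 lower in myrBRX than in BRXL2, and 2 higher and 5 lower than in libraries labelled BRX. MUTE had 3 and 2 counts in myrBRX, at or under the floor, 629 and 416 in BRXL2, and 25 and 0 in libraries labelled BRX. POLAR had 163 and 50.2 CPM in myrBRX, 30.7 and 40.1 CPM in BRXL2, and 741 and 88.3 CPM in libraries labelled BRX. The 6 phloem markers summed to 5.15 to 8.75 CPM in myrBRX, 354 to 780 CPM in BRXL2 and 5.03 to 13.9 CPM in libraries labelled BRX. APL, SEOa and SEOR1 of these, and the guard cell marker TGG2, passed the edgeR test as lower in myrBRX than in BRXL2. APL and SEOa passed it as higher in BRXL2 than where the label was BRX. SUC2 alone of the 6 phloem markers was higher by fitted fold in myrBRX and in libraries labelled BRX than in BRXL2. It had 2.86 and 8.13 CPM in myrBRX, 1.02 and 3.08 CPM in BRXL2, and 10.07 and 2.08 CPM in libraries labelled BRX. Its libraries overlapped between the lines. The 4 epidermal markers summed to 546 to 764 CPM in myrBRX, 879 to 1314 CPM in BRXL2 and 1758 to 6193 CPM in libraries labelled BRX. PDF1 and FDH held most of the highest sum, at 2929 and 2509 CPM in BRX library 1. By fitted fold 3 of the 4 were lower in myrBRX than in each other line, and 1, ATML1, was higher. ATML1 had 107 and 132 CPM in myrBRX, 120 and 90.1 CPM in BRXL2, and 106 and 95.8 CPM in libraries labelled BRX. The 6 guard cell markers summed to 399.8 to 899 CPM in myrBRX, 133 to 560 CPM in BRXL2 and 91.1 to 122 CPM in libraries labelled BRX. Most of this sum was TGG1, at 891 and 385 CPM in myrBRX, 490 and 93.6 CPM in BRXL2, and 82.5 and 115 CPM in libraries labelled BRX. By fitted fold 3 of the 6 guard cell markers were higher and 3 lower in myrBRX than in BRXL2, and 4 higher and 2 lower than in libraries labelled BRX. The 6 mesophyll markers summed to 254 to 279 CPM in myrBRX, 583 to 754 CPM in BRXL2 and 367 to 939 CPM in libraries labelled BRX. Most of this sum was RBCS1A. By fitted fold 1 of the 6, CA1, was higher and 5 lower in myrBRX than in BRXL2, and 2 were higher and 4 lower than in libraries labelled BRX. No defining marker of these 5 lists was at 0 in all libraries. The part of these differences in cell makeup in the results that follow was not tested, and in bulk samples fewer cells of a type and less RNA per cell cannot be told apart.

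A small part of the family held nearly all of its transcripts. GSTU5, GSTU7, GSTU17, GSTU18, GSTU19 and GSTF8 together made up 97.4 to 98.8% of the CPM of the 38 loci in every library. Of the 38 loci, 24 to 29 had counts above 0 in a given library, and 15 to 23 reached 1 CPM. The number at 1 CPM or more was 23 in both myrBRX libraries, 22 and 19 in BRXL2 libraries, and 15 and 18 in libraries labelled BRX. GSTU9, GSTU12, GSTU14, GSTU15, GSTU16, GSTU21 and GSTF14 had 0 counts in all 6 libraries. GSTU23, GSTU27 and GSTF12 had counts in some libraries but too few to enter the fit, which left 28 members tested, 20 tau and 8 phi. GSTU27 had 1 count in each myrBRX library, 99 and 6 in BRXL2 libraries and 0 in libraries labelled BRX.

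**Figure D1:**
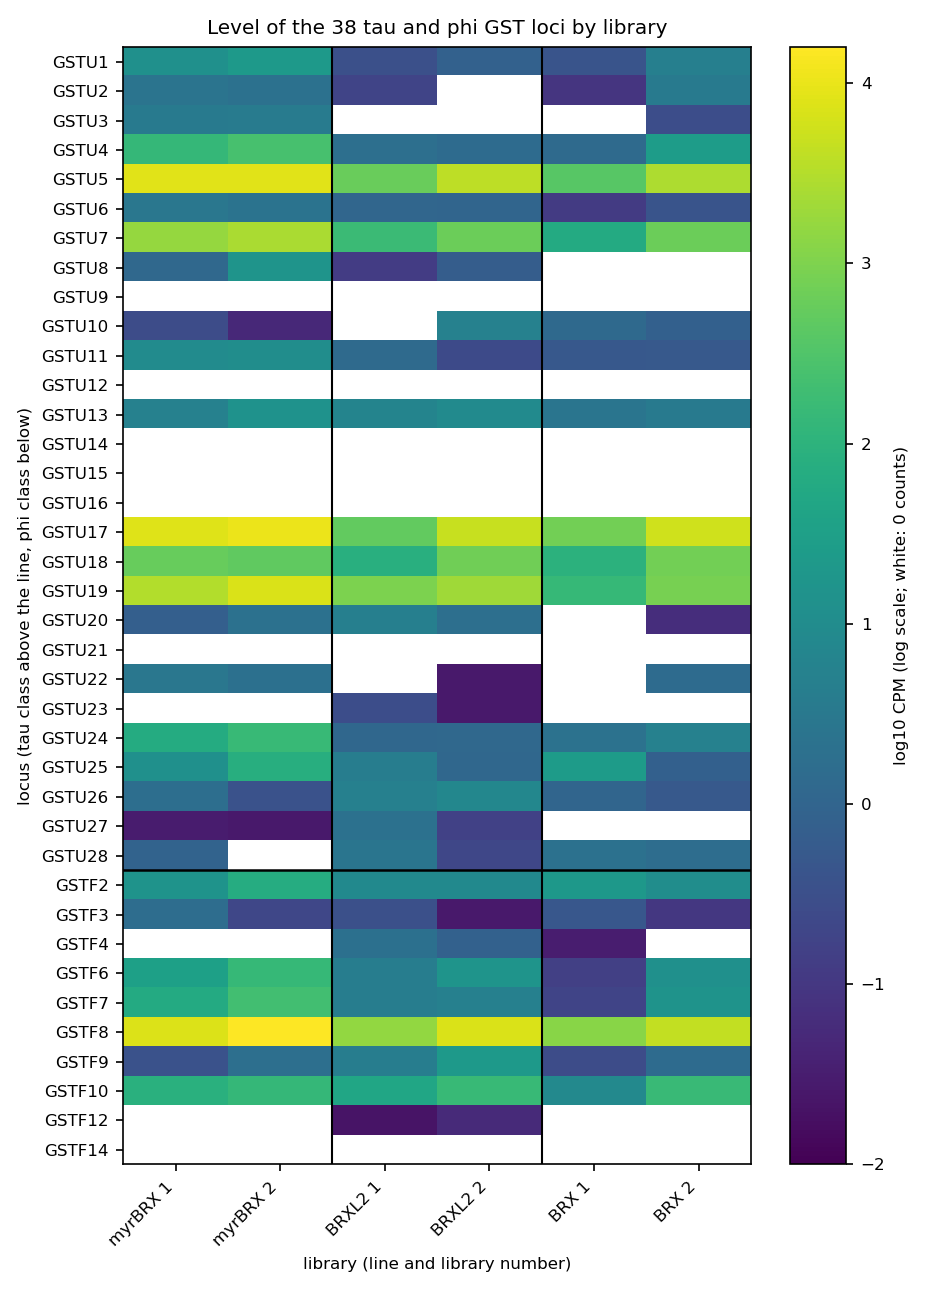
Level of each of the 38 loci (rows) in each library (columns), as log10 CPM on a colour scale, white where a library had 0 counts. The 6 abundant loci form the bright rows in all libraries, and GSTU4, GSTU24, GSTF6 and GSTF7 are brighter in the 2 myrBRX libraries than in the other 4.

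Per kb of transcript, the order of mean levels over the 6 libraries was GSTU17, GSTF8, GSTU5, GSTU19, GSTU7 and GSTU18, at 4367, 3562, 3208, 2120, 1091 and 444 CPM per kb. Each step in this order was smaller than the widest gap between the 2 libraries of a line for the genes on either side of it, except that the step from GSTU19 to GSTU7 was a little larger than the widest gap of GSTU7. GSTU17 (AT1G10370), also known as the dehydration-responsive gene ERD9, had 7906 and 10585 CPM in myrBRX libraries, 503 and 4895 CPM in BRXL2 libraries, and 758 and 5745 CPM in libraries labelled BRX. GSTU5 (AT2G29450) had 8415 and 8563 CPM in myrBRX, 609 and 3757 CPM in BRXL2, and 386 and 2715 CPM in libraries labelled BRX. For both genes the myrBRX libraries were above all 4 others, and the libraries within BRXL2 or labelled BRX differed by 6.16-fold or more. GSTU19 (AT1G78380) had 3110 and 7066 CPM in myrBRX, 962 and 2104 CPM in BRXL2, and 140 and 865 CPM in libraries labelled BRX, so that the 3 lines did not overlap. GSTU7 (AT2G29420), linked to growth under oxidative stress, had 1693 and 2602 CPM in myrBRX, 168 and 629 CPM in BRXL2, and 60.4 and 651 CPM in libraries labelled BRX. GSTF8 (AT2G47730), a stress-inducible phi enzyme known for the ocs element in its promoter, had 7603 and 15670 CPM in myrBRX, 1538 and 7052 CPM in BRXL2, and 1226 and 4171 CPM in libraries labelled BRX. The lower myrBRX library of GSTF8 lay only a little above the higher BRXL2 library.

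Summed over the class, the 28 tau loci reached 21947 and 29847 CPM in myrBRX libraries, 2354 and 12139 CPM in BRXL2 libraries, and 1479 and 10795 CPM in libraries labelled BRX. As mean ± SD these were 25897 ± 5586 CPM in myrBRX, 7247 ± 6919 CPM in BRXL2 and 6137 ± 6587 CPM in libraries labelled BRX (n = 2 each), which gave log2 ratios of 1.84 for myrBRX over BRXL2, 2.08 for myrBRX over the libraries labelled BRX, and 0.24 for BRXL2 over them. The 10 phi loci summed to 7803 and 16227 CPM in myrBRX, 1609 and 7254 CPM in BRXL2, and 1255 and 4370 CPM in libraries labelled BRX, with log2 ratios of 1.44, 2.09 and 0.66. Of all counts in a library, without any scaling, the 38 loci held 2.53 and 4.30% in myrBRX, 0.518 and 1.72% in BRXL2, and 0.347 and 1.29% in libraries labelled BRX. The myrBRX libraries were above the other 4 in each of these sums. In every line, library 2 was above library 1: 1.36-fold in myrBRX, 5.16-fold in BRXL2 and 7.30-fold in libraries labelled BRX for tau, and 2.08-, 4.51- and 3.48-fold for phi. The log2 ratio of the tau sum for myrBRX over BRXL2 was 3.47 without BRXL2 library 2 and 1.10 without BRXL2 library 1, and over the libraries labelled BRX it was 4.14 without BRX library 2 and 1.27 without BRX library 1. For BRXL2 over the libraries labelled BRX the direction rested on single libraries. The tau ratio was -1.39 without BRXL2 library 2, -0.57 without BRX library 1 and 2.30 without BRX library 2. The phi ratio was -0.81 without BRXL2 library 2, 0.02 without BRX library 1 and 1.83 without BRX library 2. With 2 libraries a side, 0.333 is the smallest two-sided p that an exact permutation test allows, and none was run on the sums.

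The remaining 23 tau loci were low, and their sum was even in BRXL2. They summed to 258 and 556 CPM in myrBRX libraries, against 31.3 and 31.2 CPM in BRXL2 libraries and 36.3 and 50.02 CPM in libraries labelled BRX. The log2 ratios were 3.70, 3.24 and -0.46 in the 3 comparisons, and the 2 BRXL2 libraries differed by 0.997-fold where the whole tau class differed by 5.16-fold. This subset was chosen by its low level after the values were seen. GSTU4, GSTU24 and GSTU25 held most of it in myrBRX. Single loci were not even in BRXL2 and differed in opposite directions there, as GSTU10 at 0 and 5.25 CPM and GSTU25 at 4.30 and 1.205 CPM.

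**Figure D2:**
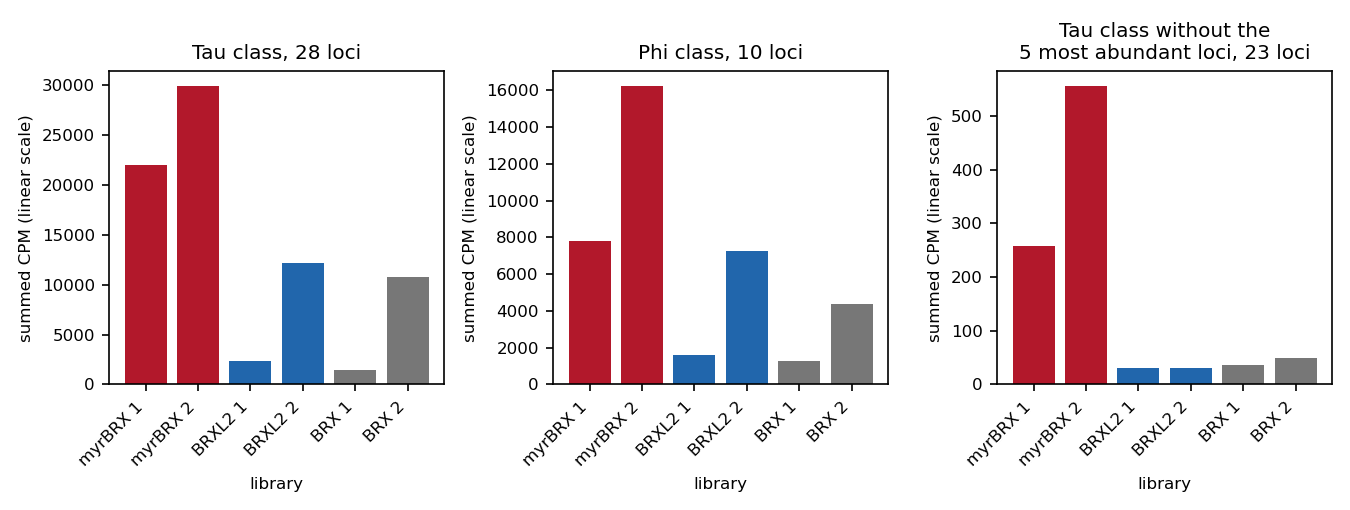
Summed CPM (linear axis from 0) of the tau class, the phi class and the 23 tau loci outside the 5 most abundant, with 1 bar per library coloured by line. The myrBRX bars are highest in each panel, and the 2 BRXL2 bars, 2354 and 12139 CPM for the whole tau class, are level at 31.3 and 31.2 CPM for the 23 loci.

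GSTU24, GSTU25 and GSTU26 lie side by side on chromosome 1. GSTU24 (AT1G17170) had 65.0 and 155 CPM in myrBRX libraries, 1.19 and 1.23 CPM in BRXL2 libraries, and 2.20 and 5.22 CPM in libraries labelled BRX. The means were 109.8 ± 63.4 CPM in myrBRX, 1.21 ± 0.0287 CPM in BRXL2 and 3.71 ± 2.14 CPM in libraries labelled BRX (SD, n = 2 each), and each line stood clear of the next. The fitted log2 fold change was 6.50 ± 1.02 (SE) for myrBRX over BRXL2 (adjusted p = 0.058, edgeR). It was 4.89 ± 0.95 for myrBRX over the libraries labelled BRX (adjusted p = 0.202, edgeR). For BRXL2 over the libraries labelled BRX it was -1.61 ± 0.83 (adjusted p = 0.603, edgeR). With any 1 library left out it stayed between 5.74 and 6.999 in the first comparison and between 4.16 and 5.65 in the second. GSTU25 (AT1G17180) had 13.1 and 78.8 CPM in myrBRX, 4.30 and 1.205 CPM in BRXL2, and 24.7 and 0.794 CPM in libraries labelled BRX. Its myrBRX libraries were above both BRXL2 libraries but overlapped the libraries labelled BRX. GSTU26 (AT1G17190) ran the other way between myrBRX and BRXL2, with 1.78 and 0.365 CPM in myrBRX, against 5.10 and 7.58 CPM in BRXL2 and 1.04 and 0.529 CPM in libraries labelled BRX. Within 1 cluster, then, GSTU24 was above both other lines in myrBRX, GSTU25 above BRXL2 only, and GSTU26 below BRXL2.

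Sequence upstream of the annotated start is shown for GSTU24 and GSTU25, the neighbours with different patterns, and for GSTU4, which with them held most of the minor tau counts in myrBRX. The sequences were read from the RefSeq TAIR10.1 genome, 5′ to 3′ towards the gene, and capitals mark TGACG on either strand (CGTCA on the strand shown). GSTU24 spans chr1:5869437-5869542 on the plus strand, only the 106 bases free of the neighbouring gene's exon. GSTU25 spans chr1:5871774-5872023 on the plus strand and GSTU4 spans chr2:12627892-12628141 on the minus strand, each 250 bases.
GSTU24: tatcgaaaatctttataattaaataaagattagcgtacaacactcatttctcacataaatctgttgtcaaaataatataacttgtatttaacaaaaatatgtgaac
GSTU25: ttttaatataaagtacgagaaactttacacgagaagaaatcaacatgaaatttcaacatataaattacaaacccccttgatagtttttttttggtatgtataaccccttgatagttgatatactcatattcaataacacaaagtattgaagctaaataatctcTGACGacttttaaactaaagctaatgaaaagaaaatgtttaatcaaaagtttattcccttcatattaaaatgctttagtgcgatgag
GSTU4: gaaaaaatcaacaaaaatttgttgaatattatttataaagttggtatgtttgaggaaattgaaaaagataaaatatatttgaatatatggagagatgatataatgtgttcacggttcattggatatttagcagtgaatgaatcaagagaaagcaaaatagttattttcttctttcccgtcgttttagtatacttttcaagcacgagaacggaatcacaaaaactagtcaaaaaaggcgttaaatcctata
The 250 bases before the GSTU24 start hold 1 TGACG match, which begins 169 bases before it and lies in the exon of AT1G17160, so it is not in the stretch printed. GSTU25 has 1 match 87 bases before its start, and the GSTU4 window has 0. Over the 38 members, 14 (36.8%; 11 tau and 3 phi) held TGACG on either strand within 250 bases of the start, against 18.6% of 27443 protein-coding genes with the same window. The W-box core TTGAC was found in 24 members (63.2%), against 44.9% of those genes; a TTGACG counts for both motifs. These matches describe letters only.

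The cluster of GSTU1 to GSTU7 on chromosome 2 held the abundant GSTU5 and GSTU7 beside 5 loci of low level. GSTU4 (AT2G29460) had 135 and 246 CPM in myrBRX libraries, 1.85 and 1.499 CPM in BRXL2 libraries, and 1.37 and 26.7 CPM in libraries labelled BRX. Its log2 fold change was 6.83 ± 1.37 (SE) for myrBRX over BRXL2 and 3.76 ± 1.18 for myrBRX over the libraries labelled BRX. That second value was 2.84 without BRX library 1 and 7.12 without BRX library 2. GSTU3 (AT2G29470) had 3.64 and 3.75 CPM in myrBRX, 0 and 0 CPM in BRXL2, and 0 and 0.298 CPM in libraries labelled BRX. Against the floor per library this was at least 51.3-fold higher in myrBRX than in BRXL2, and the log2 fold change against the libraries labelled BRX was 4.61 ± 2.39 (SE), or 3.62 without BRX library 1 and 10.13 without BRX library 2, a value that depends on the fit because 0 counts are then left on that side. GSTU1 (AT2G29490) had 12.8 and 21.9 CPM in myrBRX, 0.319 and 0.857 CPM in BRXL2, and 0.397 and 4.66 CPM in libraries labelled BRX. For all 7 loci of the cluster the lower myrBRX library was above the higher BRXL2 library, as for 24.3% of all tested loci. Against the libraries labelled BRX this held for 6 of them, and for 26.7% of all tested loci, since GSTU2, at 2.498 and 2.08 CPM in myrBRX, had 0.0915 and 3.64 CPM there. For GSTU1 to GSTU4 the second library labelled BRX was above the first and above both BRXL2 libraries.

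GSTU17 and GSTU18 are adjacent on chromosome 1 and 81.6% identical in coding sequence. GSTU18 (AT1G10360) had 565 and 475 CPM in myrBRX libraries, 80.5 and 723 CPM in BRXL2 libraries, and 98.6 and 767 CPM in libraries labelled BRX, so its myrBRX libraries lay within the range of both other lines, where those of GSTU17 lay above it. For both genes BRXL2 overlapped the libraries labelled BRX. The ratio of GSTU17 to GSTU18 CPM within a library, which no scaling of the library changes, was 13.99 and 22.3 in myrBRX, 6.25 and 6.77 in BRXL2, and 7.69 and 7.49 in libraries labelled BRX. The ratio was thus nearly level between the BRXL2 libraries, while each gene alone differed by 8.98-fold or more between them. An unequal ratio does not show which of the genes differed. Of the 50-base stretches of the GSTU17 and GSTU18 transcripts, 1.98 and 2.27% were shared, so nearly all stretches told these genes apart.

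**Figure D3:**
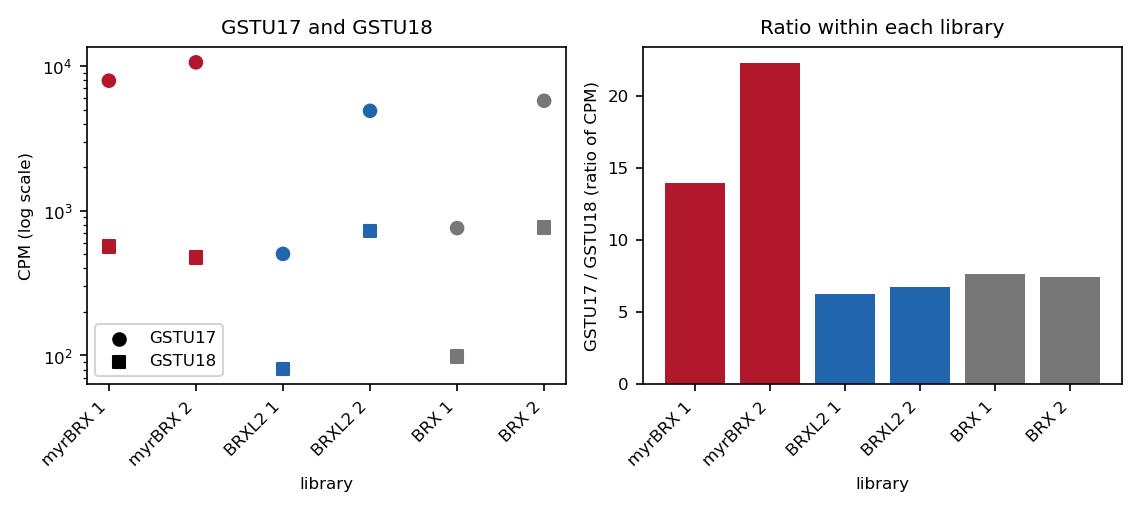
CPM of GSTU17 (circles) and GSTU18 (squares) in each library on a log axis (left), and their ratio within each library on a linear axis (right), coloured by line. The ratio is 13.99 and 22.3 in myrBRX and between 6.25 and 7.69 in the other 4 libraries.

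In the cluster of GSTU19 to GSTU23, GSTU19 held nearly all counts. GSTU20 (AT1G78370), known as FIP1 for its interaction with the jasmonate enzyme FIN219, had 0.752 and 2.06 CPM in myrBRX, 4.64 and 1.82 CPM in BRXL2, and 0 and 0.0661 CPM in libraries labelled BRX. The 2 counts in the libraries labelled BRX gave ratios of 42.5 (counting interval 11.8 to 351) for myrBRX and 97.6 (27.0 to 806) for BRXL2. GSTU22 (AT1G78340) had 2.80 and 1.98 CPM in myrBRX, 0 and 0.0268 CPM in BRXL2, and 0 and 1.45 CPM in libraries labelled BRX. Its ratio of myrBRX to BRXL2 was 178 (counting interval 32.0 to 7050), from 1 count in BRXL2, and its ratio of BRXL2 to the libraries labelled BRX was 0.0184 (0.000466 to 0.103), set by library 2 of that label alone. GSTU21 was at 0 counts throughout, and GSTU23 had 0 counts in myrBRX, 14 and 1 in BRXL2 and 0 in libraries labelled BRX.

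GSTU8 (AT3G09270) had 1.26 and 16.3 CPM in myrBRX, 0.128 and 0.669 CPM in BRXL2, and 0 counts in both libraries labelled BRX. This was at least 92.0-fold higher in myrBRX and at least 4.18-fold higher in BRXL2, each against the floor in libraries labelled BRX, with a 12.9-fold difference between the myrBRX libraries themselves. GSTU11 (AT1G69930) had 10.05 and 10.7 CPM in myrBRX, 1.36 and 0.241 CPM in BRXL2, and 0.519 and 0.529 CPM in libraries labelled BRX. It was even within myrBRX and within the libraries labelled BRX but not within BRXL2, and its log2 fold change of 3.69 for myrBRX over BRXL2 was 5.41 without BRXL2 library 1 and 2.94 without BRXL2 library 2. Its neighbour GSTU12 had 0 counts. GSTU13, tied to indole glucosinolate metabolism, overlapped between myrBRX and BRXL2, at 5.27 and 14.8 CPM in myrBRX, 6.19 and 9.37 CPM in BRXL2, and 2.502 and 3.31 CPM in libraries labelled BRX, beside GSTU14 at 0 counts. Both loci of the GSTU15 and GSTU16 cluster were at 0 counts. GSTU10 and GSTU28 were lower in both myrBRX libraries than in the libraries labelled BRX, at 0.271 and 0.0521 CPM against 1.28 and 0.794 CPM for GSTU10, and at 0.963 and 0 CPM against 2.01 and 1.65 CPM for GSTU28.

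Among the phi loci of the set, GSTF8 made up 95.5 to 97.7% of the summed CPM in every library, and the others differed in direction. GSTF7 (AT1G02920) had 61.9 and 209 CPM in myrBRX libraries, 4.30 and 4.98 CPM in BRXL2 libraries, and 0.183 and 15.4 CPM in libraries labelled BRX, with a log2 fold change of 4.87 ± 1.51 (SE) over BRXL2. GSTF6 (AT1G02930), the dehydration-responsive ERD11, had 34.3 and 142 CPM in myrBRX, 4.25 and 16.5 CPM in BRXL2, and 0.153 and 13.2 CPM in libraries labelled BRX. GSTF6 and GSTF7 are 94.3% identical in coding sequence and share 9.41 and 9.19% of their 50-base stretches, so their counts may be mixed in part. GSTF5 (AT1G02940), between GSTF6 and GSTF4 by locus number and outside the set, had 0 counts in all libraries. The remaining member in the cluster ran the other way between myrBRX and BRXL2. GSTF4 (AT1G02950) had 0 counts in both myrBRX libraries, 1.93 and 0.857 CPM in BRXL2, and 0.0305 and 0 CPM in libraries labelled BRX. It was at least 16.6-fold lower in myrBRX than in BRXL2, and the ratio of BRXL2 to the libraries labelled BRX, from 1 count there, was 91.5 (counting interval 16.4 to 3613). GSTF9 (AT2G30860) had 0.361 and 1.82 CPM in myrBRX, 4.21 and 21.7 CPM in BRXL2, and 0.275 and 1.45 CPM in libraries labelled BRX, while its neighbour GSTF10 (AT2G30870), the dehydration-responsive ERD13, had 86.4 and 137 CPM in myrBRX, 47.0 and 149.9 CPM in BRXL2, and 8.27 and 158 CPM in libraries labelled BRX. The ratio of GSTF10 to GSTF9 within a library was 239 and 75.1 in myrBRX, 11.2 and 6.91 in BRXL2, and 30.1 and 108 in libraries labelled BRX. GSTF2 (AT4G02520), which binds indole compounds, had 15.5 and 67.1 CPM in myrBRX, 8.55 and 8.81 CPM in BRXL2, and 19.8 and 10.9 CPM in libraries labelled BRX; it is 94.5% identical to GSTF3, which reached at most 1.66 CPM in all libraries. GSTF12 had 0 counts in myrBRX, 1 and 2 in BRXL2 and 0 in libraries labelled BRX.

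Between myrBRX and BRXL2, edgeR's quasi-likelihood test with Benjamini-Hochberg adjustment called 0 of the 28 tested members, against 0.0495% of all 18174 tested loci. At an unadjusted p under 0.05 it placed 10 members higher and 2 lower in myrBRX, where 5.47 and 6.94% of all loci were. DESeq2 called 7 members higher (GSTU1, GSTU3, GSTU4, GSTU11, GSTU24, GSTU25 and GSTF7) and 0 lower, with 2.89 and 3.82% of loci called in those directions, and limma-voom called 0 members and 0% of loci. Libraries did not overlap for 18 members higher in myrBRX and 3 lower (GSTU26, GSTF4 and GSTF9), where 24.3 and 24.7% of loci were higher or lower in that way. By fitted fold, 22 members were higher and 6 lower, with a median log2 fold change of 2.1, also with loci at 0 in 1 line set to their bound, against -0.15 over all loci, of which 46.3% were higher. Without BRXL2 library 1 the median was 1.52, with 21 members higher and 7 lower, and without BRXL2 library 2 it was 3.18, with 23 and 5. Since the members were chosen with such values known, nothing is read from these counts.

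Between myrBRX and the libraries labelled BRX, the edgeR test called 0 members and 0% of loci. Unadjusted p under 0.05 was met by 8 members higher and 0 lower in myrBRX, against 7.08 and 7.1% of loci. DESeq2 called 7 members higher (GSTU4, GSTU8, GSTU11, GSTU19, GSTU24, GSTF6 and GSTF7) and 0 lower, against 4.35 and 4.37% of loci, and limma-voom 0 members and 0% of loci. Libraries did not overlap for 17 members higher and 2 lower, against 26.7 and 22.4% of loci. By fitted fold 25 members were higher and 3 lower, with a median of 1.98 against -0.03 over all loci. Without BRX library 1 these were 21 higher and 6 lower with a median of 1.81, and without BRX library 2 they were 25 and 3 with a median of 4.35. The comparisons of myrBRX share the myrBRX libraries, so they are not independent of each other.

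Between BRXL2 and the libraries labelled BRX, the edgeR test called 0 members, against 0.0935% of loci. Unadjusted p under 0.05 was met by 3 members higher (GSTU8, GSTU20 and GSTF9) and 1 lower (GSTU4) in BRXL2, against 5.77 and 3.09% of loci. DESeq2 called GSTU20 higher and 0 members lower, against 2.78 and 1.12% of loci, and limma-voom 0 members and 0% of loci. Libraries did not overlap for 8 members higher and 2 lower, against 18.3 and 14.9% of loci. By fitted fold 15 members were higher and 13 lower, with a median of 0.21 against 0.03 over all loci, and without BRX library 1 these turned to 13 higher and 15 lower with a median of -0.29. Without BRXL2 library 2 the median was -0.84, and without BRX library 2 it was 1.93, so the direction between these lines rested on single libraries.

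**Figure D4:**
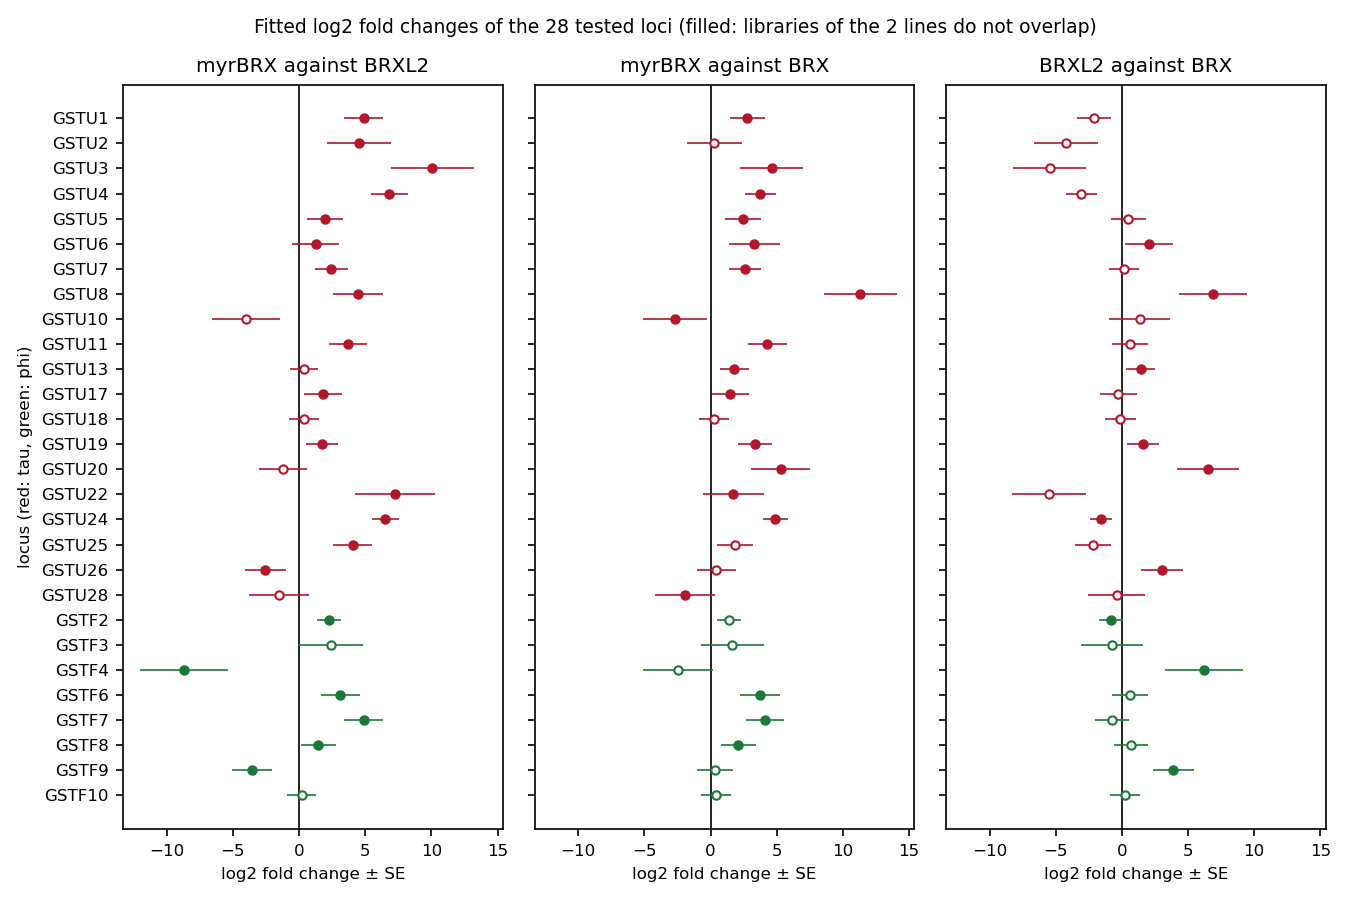
Fitted log2 fold change ± SE of the 28 tested loci (rows, tau red and phi green) in the 3 comparisons, with filled points where the libraries of both lines do not overlap. Most points lie right of 0 in the myrBRX comparisons (22 and 25 of 28) and about evenly on both sides between BRXL2 and BRX (15 of 28); fitted values of loci at 0 in a line depend on the fit and are not bounds.

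Genes that respond to xenobiotics together with GSTs were read from a list of 9: TGA2, TGA5, TGA6, SCL14, CYP81D8, CYP81D11, OPR1, OPR2 and UGT74E2. In the edgeR test 0 passed in each comparison. At an unadjusted p under 0.05, 3 were higher and 0 lower in myrBRX than in BRXL2, likewise 3 and 0 against the libraries labelled BRX, and 0 between BRXL2 and those libraries, where 5.47, 7.08 and 5.77% of all tested loci were higher at that p. DESeq2 called UGT74E2, CYP81D11 and CYP81D8 higher in both myrBRX comparisons, where it called 2.89 and 4.35% of loci higher, and limma-voom called 0. UGT74E2, a glucosyltransferase acting on indole-3-butyric acid, had 53.7 and 75.9 CPM in myrBRX libraries, 1.32 and 3.45 CPM in BRXL2 libraries, and 8.64 and 5.82 CPM in libraries labelled BRX. Its log2 fold change was 4.76 ± 0.95 (SE) over BRXL2 (adjusted p = 0.162, edgeR) and 3.16 ± 0.88 over the libraries labelled BRX (adjusted p = 0.210, edgeR). CYP81D11, a cytochrome P450 induced by xenobiotics and jasmonate, had 132 and 71.4 CPM in myrBRX, 16.1 and 6.10 CPM in BRXL2, and 2.53 and 10.8 CPM in libraries labelled BRX, with log2 fold changes of 3.19 ± 0.97 (adjusted p = 0.246, edgeR) and 3.93 ± 1.00 (adjusted p = 0.202, edgeR). Of the abundant genes of the list, picked after their values were seen, CYP81D8 had 1151 and 1312 CPM in myrBRX, 86.2 and 236 CPM in BRXL2, and 16.6 and 152 CPM in libraries labelled BRX. OPR1, an oxophytodienoate reductase homologue, had 3333 and 5958 CPM in myrBRX, 749 and 2455 CPM in BRXL2, and 298 and 1841 CPM in libraries labelled BRX. All 5 of the enzyme genes were higher in both myrBRX libraries than in the other 4 libraries, as was SCL14, at 64.1 and 70.9 CPM in myrBRX against 36.2 to 46.0 CPM in BRXL2 and 26.4 to 34.3 CPM in libraries labelled BRX. Of all tested loci, 24.3% were higher in this way over BRXL2 and 26.7% over the libraries labelled BRX. TGA2 was lower, at 0.813 and 1.07 CPM in myrBRX, 5.80 and 6.08 CPM in BRXL2, and 3.60 and 1.82 CPM in libraries labelled BRX, and TGA5 and TGA6 overlapped between lines.

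**Figure D5:**
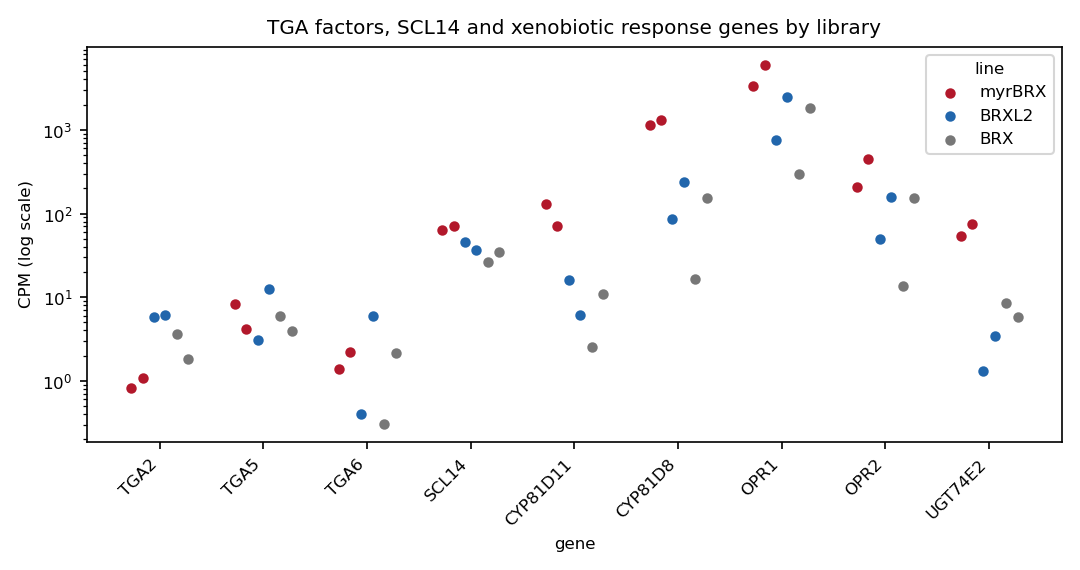
CPM (log axis) of 3 TGA factors, SCL14 and 5 xenobiotic response enzyme genes, 6 points per gene, 1 per library, coloured by line. In all 5 enzyme genes both myrBRX points lie above the other 4, as at UGT74E2 (53.7 and 75.9 CPM against 1.32 to 8.64 CPM), while for TGA2 they lie below.

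Genes around the conjugation step gave 0 calls in each comparison by edgeR, DESeq2 and limma-voom. A list of 14 GST loci outside the set held loci of other classes and the phi loci GSTF5, GSTF11 and GSTF13. Of the 14, 9 were tested, all of other classes. In myrBRX against BRXL2, 0 were under an unadjusted p of 0.05, and 1, DHAR1, was against the libraries labelled BRX. DHAR1, a dehydroascorbate reductase, had 77.9 and 126 CPM in myrBRX, 67.4 and 59.6 CPM in BRXL2, and 23.4 and 39.2 CPM in libraries labelled BRX (log2 fold change 1.70 ± 0.77 against the last, adjusted p = 0.346, edgeR). DHAR2 had 24.0 and 43.6 CPM in myrBRX, 6.36 and 19.5 CPM in BRXL2, and 1.19 and 12.4 CPM in libraries labelled BRX. Of 6 genes of glutathione supply and turnover, 0 were under an unadjusted p of 0.05 in any comparison. GR1, a glutathione reductase, had 196 and 134 CPM in myrBRX, 59.1 and 66.5 CPM in BRXL2, and 119 and 47.2 CPM in libraries labelled BRX, while GSH2, glutathione synthetase, was at 2.77 and 5.99 CPM in myrBRX, against 10.2 and 17.5 CPM in BRXL2 and 12.8 and 12.2 CPM in libraries labelled BRX. The 4 vacuolar transporter genes also had 0 under that p; ABCC1 had 157 and 251 CPM in myrBRX, 55.3 and 74.6 CPM in BRXL2, and 95.1 and 232 CPM in libraries labelled BRX, and ABCC4 overlapped between lines.

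Genes of the pathways served by single members gave 0 calls by edgeR and limma-voom in each comparison, and DESeq2 called GGP1 higher in myrBRX than in the libraries labelled BRX and CSD1 higher in BRXL2 than in them. At an unadjusted p under 0.05 edgeR placed 1 higher and 1 lower of the glucosinolate genes in myrBRX against BRXL2, 1 higher and 0 lower in each other comparison, 1 antioxidant gene higher in each comparison against the libraries labelled BRX, and 0 of the other lists. Of 3 camalexin genes, beside GSTF6, none was tested, and PAD3 had 0 counts in all libraries. CYP71A12 had 17 and 2 counts in myrBRX and CYP71A13 had 1 and 0 there, and both had 0 counts in BRXL2 libraries and in libraries labelled BRX. Of 5 anthocyanin genes, beside GSTF12, 2 were tested, LDOX and PAP1, each at most 3.66 CPM in all libraries. TT8, not tested, had 0.0213 and 5.09 CPM in BRXL2 libraries and 0 counts in myrBRX and in libraries labelled BRX. Of 10 glucosinolate genes 5 were tested, and GGP1, a glutamyl peptidase that processes glutathione conjugates, had 338 and 466 CPM in myrBRX, 55.4 and 85.8 CPM in BRXL2, and 18.9 and 109 CPM in libraries labelled BRX (adjusted p = 0.327 over BRXL2 and 0.279 over the libraries labelled BRX, edgeR). MYB28, a regulator of aliphatic glucosinolates, had 0 counts in myrBRX, 0.808 and 2.14 CPM in BRXL2, and 0 counts in libraries labelled BRX. Of 7 antioxidant genes the lowest adjusted p was 0.793 for myrBRX against BRXL2 and 0.295 against the libraries labelled BRX, both for CSD1, a superoxide dismutase, at 22.5 and 68.5 CPM in myrBRX, 25.01 and 124 CPM in BRXL2, and 9.80 and 6.32 CPM in libraries labelled BRX. Of 6 jasmonate and wound genes 4 were tested: JAZ1, a jasmonate repressor, had 1003 and 1348 CPM in myrBRX, 169 and 913 CPM in BRXL2, and 320 and 2683 CPM in libraries labelled BRX, and AOS, an oxylipin enzyme, had 329 and 583 CPM in myrBRX, 158 and 497 CPM in BRXL2, and 48.8 and 236 CPM in libraries labelled BRX. For JAZ1 and AOS library 2 was above library 1 in every line, as for the summed tau and phi classes. This did not hold for JAZ10 of the same list, where library 2 was the lower of the libraries labelled BRX. JAZ10 had 63.0 and 114 CPM in myrBRX, 36.4 and 143 CPM in BRXL2, and 39.2 and 28.3 CPM in libraries labelled BRX.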

How the data were processed

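Counts of 6 libraries, 2 per line, were analysed. Each deposited table gives raw counts by locus, unnormalised: the entries are whole and their totals differ between libraries. Per the submitters' processing notes, alignment used Bowtie2 and TAIR10. Which program counted the reads, its use of strand and its handling of reads shared by paralogs are not given in the sources used here, so antisense reads may be included. RNA was 20 ng per sample with an integrity number above 8, amplified with NuGEN's Ovation V2 kit, per the labels' protocols. Amplified reads are not independent molecules, so floors and 95% exact Poisson intervals cover counting error only.

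Counts were filtered with filterByExpr at a minimum of 10 counts (18174 of 33602 loci kept), scaled with TMM factors and fitted with edgeR 4.0.16 under R 4.3.3 (glmQLFit and glmQLFTest, two-sided), with 1 coefficient per line, 3 residual degrees of freedom, a common dispersion of 0.781 and Benjamini-Hochberg adjustment over all tested loci at a threshold of 0.05. The SE of a fitted log2 fold change was its absolute size divided by the square root of the F statistic of its test. The steps were tested on simulated data. Libraries of a line were not copies (chi-square per gene 605.9 to 903.6), and the labels do not say whether they came from separate plants or cultures, so a p here reflects the spread between these libraries alone, which may be technical. Alternatives were RLE and upper-quartile factors, no filter, a filter of at least 1 CPM in 4 libraries, DESeq2 1.42.0, limma-voom (limma 3.58.1), edgeR's newer fit, only the compared libraries, the replicate number as a block, counts without organelle loci and AT1G79245, and each library left out in turn.

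Names, transcript lengths (the median over a locus's transcripts) and upstream windows of 250 bases came from RefSeq TAIR10.1, which matched 32835 loci; coordinates are those of TAIR10.1. Coding identity was taken from pairwise alignment with Biopython 1.88. Members and gene lists were chosen with earlier results of these data known. Values per library are given for the 4 tau and 3 phi loci most abundant per kb, the 4 largest fold changes per comparison, GSTU24 and each tandem cluster. From the other lists values are given for up to 2 genes of low p, which were not always the 2 lowest. Further genes were named after their values were seen. Of 96 list entries, 3 did not match the reference and were left out.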

Additional observations from a re-analysis of the deposited data

How the results depend on the processing

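Member log2 fold changes kept their sign under RLE and upper-quartile factors, no filter, DESeq2, edgeR's newer fit and without organelle loci. With the compared libraries alone 78 of the 84 could be fitted, and with the stricter filter 48, and these kept their sign. Of 84, limma-voom turned 2, the replicate block 1, and leaving out single libraries 2 to 11. The largest shift in the median of all loci under another scaling was -0.068 (log2).

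For myrBRX against BRXL2, edgeR called 9 loci, 5 with RLE or upper-quartile factors, 657 with no filter, 0 with the stricter filter or limma-voom, 1149 with DESeq2, 26 with the newer fit, 22 with the compared libraries only and 24 to 119 with single libraries left out. It called 0 members there, 6 with no filter, 7 with DESeq2, 1 with the newer fit, 2 with the compared libraries only and 0 to 3 with single libraries left out. For myrBRX against the libraries labelled BRX it called 0 loci, 724 with no filter, 1493 with DESeq2, 2 with the newer fit and 1 to 327 with single libraries left out, and of the members 0, with 5, 7, 0 and 0 to 4 under the same settings. For BRXL2 against the libraries labelled BRX it called 17 loci, 403 with no filter, 0 with the stricter filter, limma-voom or the compared libraries only, 667 with DESeq2 and 6 to 221 with single libraries left out, and 0 members except 1 with DESeq2. The cause of these differences was not tested.

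With single libraries left out, the tau log2 ratio ranged from 1.10 to 3.47, 1.27 to 4.14 and -1.39 to 2.30 in the 3 comparisons, and the phi ratio from 0.73 to 2.91, 1.46 to 3.27 and -0.81 to 1.83. These ratios use no model of spread. In the edgeR fits with a library left out, the lone library of a line was assumed to vary like the other groups.

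Whether a shared replicate number pairs libraries across lines is not given in the labels, and 2 numbers are too few to settle it. Deviations from the line means correlated at 0.0581 to 0.127. Library 2 was above library 1 for 19, 18 and 20 of the 28 members in myrBRX, BRXL2 and libraries labelled BRX. Of all tested loci this held for 47.9, 48.0 and 51.1%. With the replicate number as a block edgeR called 42, 29 and 33 loci in the 3 comparisons, and 2, 1 and 0 members. Levels under the floor of 3 counts cannot be told from 0 at this depth.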
